A study of Mus musculus with 2 samples.

Results

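Elastic fibres consist of a core of cross-linked elastin laid down on a scaffold of fibrillin microfibrils. Fibulins and EMILINs bridge the core and the scaffold, lysyl oxidases cross-link elastin, and latent TGF-β binding proteins attach stored growth factor to fibrillin. In the skeleton, fibrillin microfibrils are known from cartilage matrix and perichondrium, and human mutations of the fibrillin genes are known for long, slender limbs or contractures. The list described here held 10 genes of this system, namely Fbn1, Fbn2, Eln, Fbln1, Fbln2, Fbln5, Efemp1, Efemp2, Emilin1 and Mfap5, out of 18193 named genes on the array. They were taken by gene symbol, as all probe sets that name one of these genes alone. Of the 10 genes, 8 had such a probe set, 16 probe sets in all, among 45101 on the array. No probe set was paired with Fbn1 or Efemp2 in the annotation used, so both were not analysed here.

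Cartilage of wild-type C57BL/6J mouse embryos at E17.5 was compared between 2 groups, on 1 Affymetrix array each. One array carried RNA from cartilage enriched in round chondrocytes, the cells of the epiphyseal end. The other carried RNA from cartilage enriched in columnar and hypertrophic chondrocytes, which follow as the cells flatten, divide in stacks and then swell. RNA from 3 cartilage portions was mixed, so the groups are enriched portions and not purified cells, and the spread between portions or embryos was not measured. With 1 array per group there is no replicate error, no test and no p-value for any value below. In such bulk RNA, fewer cells of a type and less RNA per cell cannot be told apart.

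Signals are linear MAS5 values in arbitrary units, which were scaled to the same trimmed mean on both arrays, and signals of different probe sets are not on a common scale. A signal above 100.5, the 95th percentile of 87 probe sets of chemosensory receptor genes, was taken as measured. Differences are log2 values of the columnar/hypertrophic array minus the round array, so that negative values mean a lower signal on the columnar/hypertrophic array. The difference of a gene is that of its brightest probe set. Where 1 of the arrays lay under this floor, the difference is a bound. Over all probe sets, the round array had a median signal of 128 and the other array one of 105. Marker genes were set beside the zone labels. Their lists were chosen with earlier results of these data known, so they are no independent check of the labels. Col10a1, the collagen gene of hypertrophic cartilage, had signals of 24.2 on the round array and 10818 on the other. Of 9 measured hypertrophic markers, 8 were higher on the columnar/hypertrophic array by 2-fold or more, beside 4.31% of all genes measured. The differences of 4 of the 9, Col10a1 included, are bounds, as they lay under the floor on the round array. Mmp13 of the same list was under the floor on both arrays, at 22.8 and 11.7. Of 11 markers of round and resting chondrocytes, 10 were lower on the columnar/hypertrophic array by 2-fold or more, beside 6.37% of all genes measured. All 16 general chondrocyte markers were measured and within 2-fold, with Col2a1, the main collagen gene of cartilage, at 33307 and 37936 and Sox9, the lineage transcription factor gene, at 7815 and 7203.

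Fbn2 and Eln, the fibrillin and the elastin gene that could be measured, had lower signals in the columnar/hypertrophic portion, and the other 5 measured members (Fbln1, Fbln2, Fbln5, Efemp1 and Emilin1) lay within 2-fold. Of the 8 genes, 7 were measured, and each of the 7 was above the floor on both arrays, so none of their differences is a bound. Of these 7 genes, 2 were lower by 2-fold or more and 0 were higher by as much. The shares among all 11703 genes measured were 6.37% lower (745 genes) and 4.31% higher (504 genes). With the arrays scaled to equal medians these totals became 414 and 943. The members' median difference was -0.39, beside -0.05 over all genes measured, and their range ran from -3.06 to 0.57. Of the 7 members, 6 lay below 0, and so did 6423 of all 11703 genes measured.

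**Figure D1:**
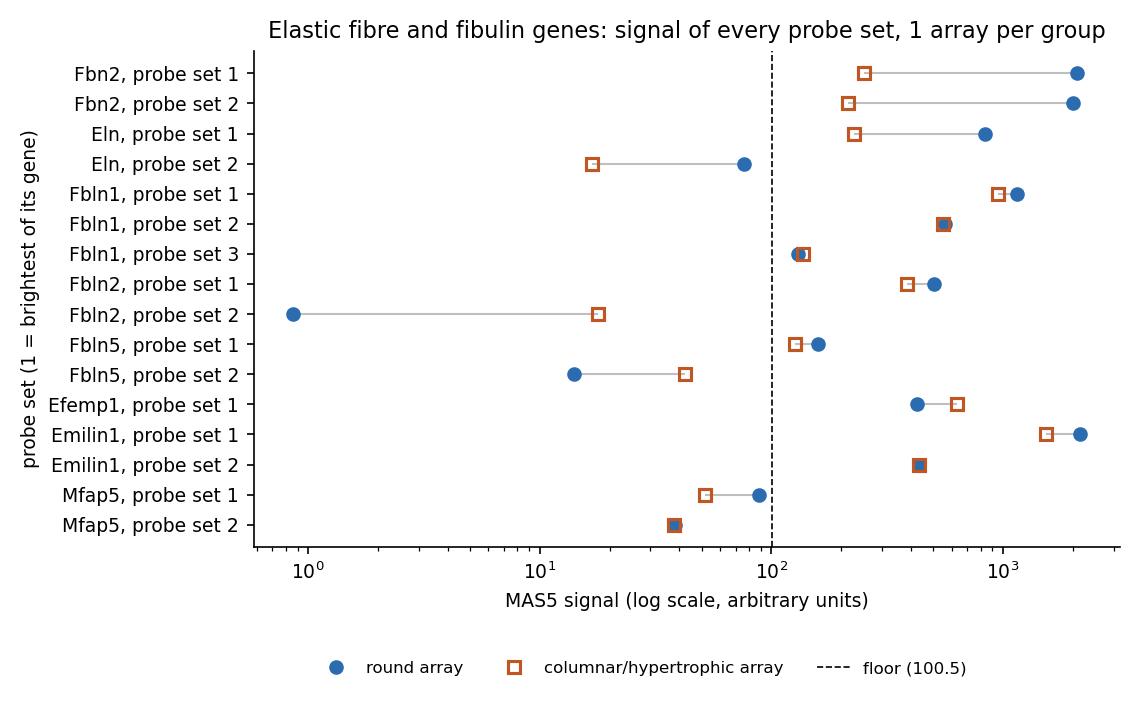
MAS5 signal (horizontal, log scale) of each of the 16 probe sets of 8 elastic fibre and fibulin genes (vertical, probe set 1 being the brightest of its gene) on the round array (filled circles) and the columnar/hypertrophic array (open squares), 1 array per group, and a dashed line marks the floor of 100.5. Both Fbn2 probe sets and the brighter Eln probe set are clearly apart on the 2 arrays, the fibulin and Emilin1 probe sets above the floor lie close together, and 5 probe sets, both of Mfap5 included, lie under the floor on both arrays.

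Fibrillins are the large glycoproteins that polymerise into microfibrils, and Fbn2 encodes the family member known mainly from embryonic tissue. Its brighter probe set had a signal of 2085 on the round array and 251 on the other. Its other probe set had 2004 and 214. Both probe sets were thus high on the round array and low, though above the floor, on the other. The brighter one was 8.32-fold lower and the other 9.35-fold lower in the columnar/hypertrophic portion, differences of -3.06 and -3.23.

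The 2 Fbn2 probe sets differed from each other by 0.17 on the log2 scale. The SD of the differences of single probe sets about the mean of their gene was 0.37. It was taken over 4825 genes that had more than 1 probe set measured on each array. This is a technical spread and not one between replicates, and it measures distance from a gene's mean, not the gap between 2 probe sets. Of all genes measured, 30 had a lower difference than Fbn2, which is 0.256% of them. Among the 2468 genes with a mean log2 signal within 0.5 of that of Fbn2, the share was 0.527%.

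Eln encodes tropoelastin, the soluble monomer of the elastin core. Its brighter probe set had a signal of 833 on the round array and 228 on the other. The signal was therefore lower in the columnar/hypertrophic portion, by 3.65-fold (-1.87), and 157 genes (1.34% of those measured) had a lower difference. Among the 2206 genes of similar signal, 1.81% had one. The other Eln probe set had signals of 76.0 and 16.8, both under the floor, and gave no difference. Eln thus rests on 1 probe set, unlike Fbn2.

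Emilin1, which encodes an elastin-associated glycoprotein of the elastin and microfibril interface, had no settled difference. Its brighter probe set had 2157 on the round array and 1529 on the other (-0.50), whereas its second probe set had 432 and 434 (0.006). Only the brighter probe set was lower in the columnar/hypertrophic portion, and the second was level.

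Fibulins are secreted proteins with calcium-binding EGF-like repeats that bind elastin, fibrillins and other matrix proteins. Fbln1 was measured with 3 probe sets. Its brightest had signals of 1154 on the round array and 955 on the other (-0.27), the next had 559.7 and 552 (-0.02), and the dimmest had 130.1 and 136 (0.07). The arrays were nearly level by each, the sign differed between probe sets, and with the arrays scaled to equal medians the difference of the brightest was 0.008.

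Fbln2, a fibulin that binds fibrillin and basement membrane proteins, had 503 on the round array and 383 on the other, a difference of -0.39. Fbln5, which is known to guide elastic fibre assembly, had 158 and 127 (-0.32). The second probe sets of both genes lay under the floor on both arrays and gave no difference. Fbln5 was close to the floor, and with the floor at the 99th percentile its difference became -0.12. Both genes were slightly lower on the columnar/hypertrophic array, by amounts of about the technical SD, 1.06 times it for Fbln2 and 0.873 times it for Fbln5.

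Efemp1, a fibulin gene of soft connective tissues, was the only one of the 7 measured genes whose signal was higher in the columnar/hypertrophic portion. Its single probe set had 425 on the round array and 629.9 on the other, 1.48-fold higher (0.57). This was 1.55 times the technical SD and under 2-fold, and 12.3% of all genes measured had a higher difference.

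Mfap5, which encodes a small microfibril-associated glycoprotein, was under the floor on both arrays. Its probe sets had 88.7 and 38.4 on the round array and 51.5 and 38.1 on the other. No difference is given, and at this floor the gene was not detectable in either portion.

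**Figure D2:**
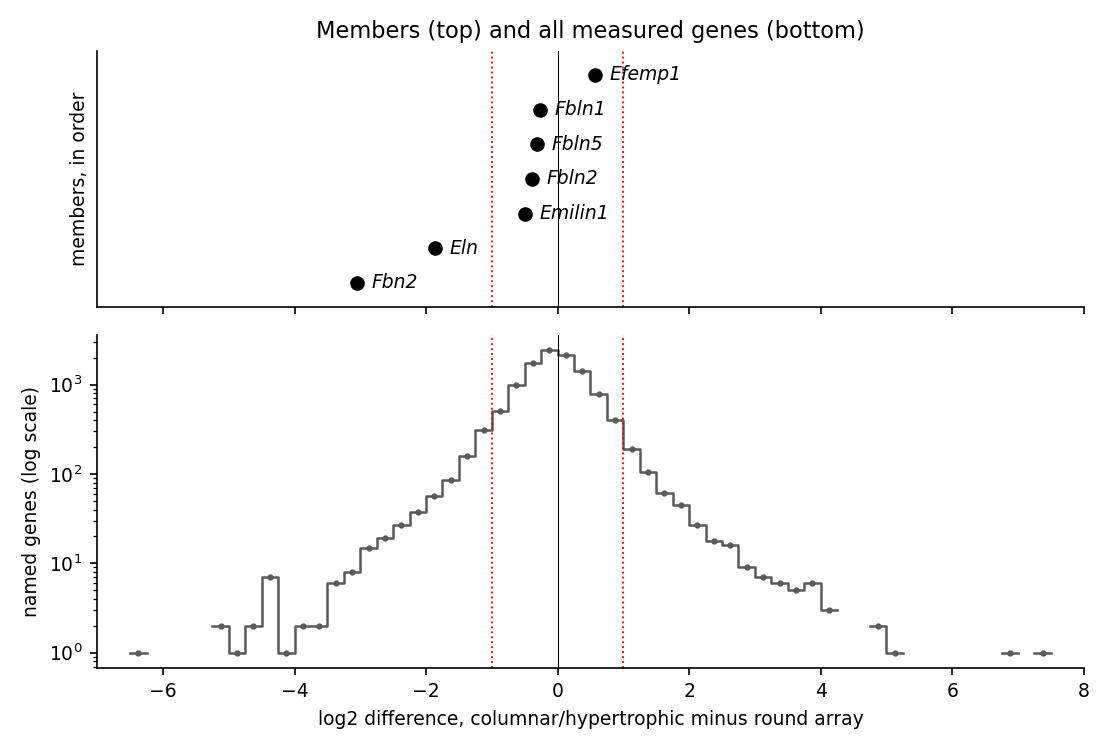
Log2 difference (horizontal, columnar/hypertrophic minus round array) of the 7 measured elastic fibre and fibulin genes in the upper panel, in order, and number of named genes in each bin of the same difference in the lower panel (vertical, log scale, 11703 genes). Dotted lines mark 2-fold differences; Fbn2 (-3.06) and Eln (-1.87) lie beyond them in the lower tail, and the other 5 genes lie between them.

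Other genes related to elastic fibres were described from 7 lists. These also held proteases, TGF-β ligands, integrins and matrix partners, so their counts are not of assembly genes alone. Together the lists held 38 measured genes, of which 17 were lower by 2-fold or more and 2 higher by as much in the columnar/hypertrophic portion, beside the 6.37% and 4.31% of all genes. Of the 38 differences, 9 are bounds. Hmcn1, Emilin3, Ltbp1, Loxl1, Adamtsl2 and Adamtsl3, among the 17, were measured on the round array alone and so could only come out lower. Of all 11703 genes measured, 10235 were above the floor on both arrays. With the arrays scaled to equal medians 12 of the 38 were lower by as much, and Mfap2 (-0.86), Ltbp4 (-0.999), Adamtsl2 (-0.91), Tgfb3 (-0.83) and Bgn (-0.75) fell short of 2-fold. The lists were chosen with earlier results of these data known. The counts of each list below are to be read beside the same shares of all genes. These shares varied with signal. Among genes of similar signal, the share at least 2-fold lower ran from 2.70% for Bgn to 18.4% for Ltbp4 over the 17 lower genes. For Hmcn1 it was 15.8%, for Loxl1 13.3% and for Vcan 4.14%.

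Of 4 other fibulin, EMILIN and MFAP genes measured, 3 were at least 2-fold lower and 0 higher. Mfap2, which encodes a microfibril-associated glycoprotein related to that of Mfap5, had 3958 on the round array and 1793 on the other, 2.21-fold lower, and -0.73 by its second probe set. Emilin3 went from 695 to 97.1, at least 6.91-fold lower, and the hemicentin gene Hmcn1, of the wider fibulin family, from 538 to 40.3, at least 5.36-fold lower. Fbln7 was nearly level at 8927 and 9954 (0.16). Mfap4, Emilin2, Mmrn1 and Mmrn2 were under the floor on both arrays.

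The latent TGF-β binding proteins share the fibrillin fold, and all 4 of their genes were lower in the columnar/hypertrophic portion, 3 of them by at least 2-fold. Of all 11703 genes measured, 6423 were lower there. Ltbp3, whose product is known to be needed for normal bone and cartilage growth, had 5728 and 2179, 2.63-fold lower, and its 4 probe sets ran from -1.70 to -1.39. Ltbp4, which is needed for elastic fibre assembly, had 315 and 129.7, 2.43-fold lower. Ltbp1 went from 531 to 94.9 in the only one of its 3 probe sets above the floor, at least 5.28-fold lower, and Ltbp2 from 176 to 45.2, at least 1.75-fold lower.

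Lysyl oxidases oxidise lysines of elastin and collagen for cross-linking, and their genes were split. Loxl1, the family member most closely tied to elastin, had 684 on the round array and 54.6 on the other, at least 6.81-fold lower. Only 1 of its 2 probe sets was above the floor. Loxl4 was in the opposite order at 110.7 and 1154, 10.4-fold higher, although its round signal was close to the floor and its other probe set gave 1.79. Loxl3 was level at 11153 and 10523 (-0.08). Lox had 244 and 189.9 (-0.36), and 0.46 by another probe set, so its direction was not settled. No probe set was paired with Loxl2, which was not analysed here.

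Fibrillin-associated ADAMTS and ADAMTS-like genes encode secreted proteins, several of which bind microfibrils. All 6 measured genes were lower in the columnar/hypertrophic portion by their brightest probe sets, 4 of them by at least 2-fold. The same direction was seen for 6423 of all 11703 genes measured. Adamtsl4 had 504 and 119 (4.25-fold lower), and Thsd4, which promotes microfibril assembly, had 519 and 184 (2.81-fold lower). Only 1 of the 2 Thsd4 probe sets was above the floor. Adamtsl3 went from 548 to 8.13, at least 5.45-fold lower, and Adamtsl2 from 227 to 13.4, at least 2.26-fold lower. Adamts10 differed by -0.90 in its brightest probe set and by 0.13 in another.

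Among TGF-β ligand genes and genes of RGD-binding integrins, 2 of 8 were at least 2-fold lower (1 with equal medians) and 1 higher. Tgfb2 had 408 and 1369, 3.36-fold higher, with 4 probe sets between 1.06 and 1.97. Tgfb3 had 762 and 354, 2.15-fold lower, and the integrin gene Itga8 had 3877 and 167, 23.2-fold lower (-4.54), and -3.14 by its other probe set. Tgfb1 was level (150.1 and 149). Of 4 protease genes measured that can degrade elastin, 0 passed 2-fold by their brightest probe sets, which lay between -0.97 (Ctsl) and -0.35 (Mmp14). Other probe sets gave -1.19 for Mmp2 and -1.26 for Mmp14, and under quantile or lowess scaling Mmp2 and Ctsl passed 2-fold, so the count of 0 depends on the setting. Of 8 genes of matrix partners of elastic fibres, 4 were at least 2-fold lower and 0 higher. These were Vcan, encoding the large proteoglycan versican that binds fibrillin and fibulins (4801 and 231, with 1 other probe set at -0.05), the small proteoglycan genes Dcn (23677 and 4414) and Bgn (25721 and 12553), and the chaperone gene Clu (812 and 198). The rest of this list lay within 2-fold. Hspg2 (0.53) and Fn1 (0.44) were above 0, also by their other probe sets. Nid1 (-0.25, and 0.09 by another probe set) and Ecm1 (a bound of -0.32) were slightly below it.

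**Figure D3:**
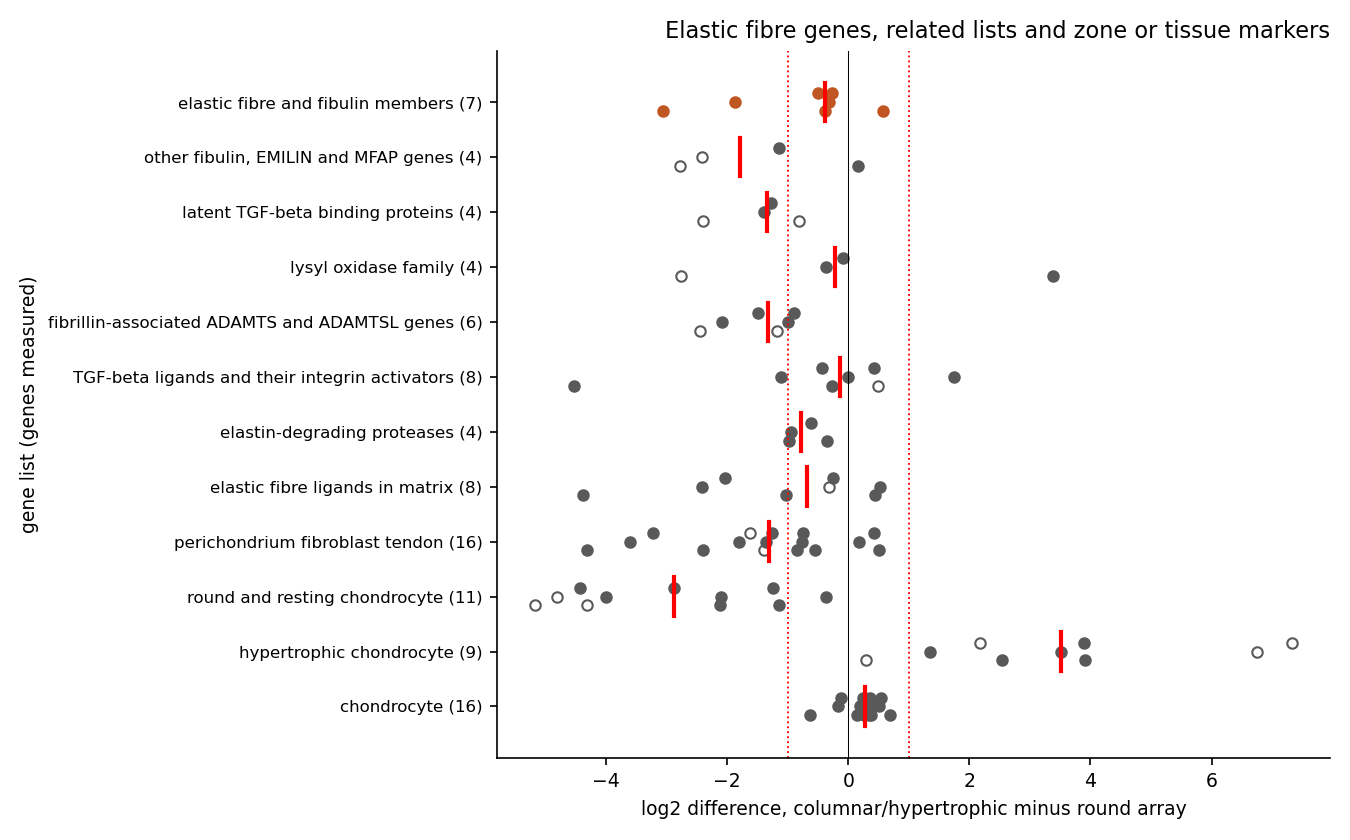
Log2 difference (horizontal, columnar/hypertrophic minus round array) of each measured gene of the elastic fibre and fibulin genes (top row, orange), 7 related lists and 4 lists of tissue or zone markers, followed by the count of measured genes. Open points are bounds, red bars are medians of the lists, and dotted lines mark 2-fold. The members' median is -0.39, that of the latent TGF-β binding proteins -1.34, that of the perichondrium, fibroblast and tendon markers -1.31 and that of the round and resting chondrocyte markers -2.88.

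Fibroblasts, perichondrium and vessel walls also make elastic fibre proteins, and their markers were measured beside the members. Of 16 perichondrium, fibroblast and tendon markers measured, 9 were lower by 2-fold or more in the columnar/hypertrophic portion and 0 higher. The shares of all genes measured were 6.37% and 4.31%, and this list too was chosen with earlier results of these data known. All 19 genes summed to a signal of 109811 on the round array and 67059 on the other, a sum made up mostly of Col1a2, Col3a1 and Lum, while the median difference of the list was -1.31. By the brightest probe sets, the largest differences were those of Col14a1 (2375 and 119, with another probe set at -2.53 against -4.31), the matricellular genes Postn (1919 and 158) and Tnc (1462 and 156, with another probe set at -1.18 against -3.22), and the fibrillar collagen gene Col3a1 (26223 and 4986), whereas Lum (0.17), Col6a3 (0.51) and Twist2 (0.43) lay above 0. Scx, the defining transcription factor gene of tendon, was under the floor on both arrays, as were Thy1 and Dpt. The tendon genes Tnmd and Mkx of the same list were measured. Tnmd went from 311 on the round array to 35.8 on the other, at least 3.09-fold lower, and Mkx had 487 and 333 (-0.55). The part of such tissue in the lower Fbn2 and Eln signals was not tested.

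Vessel markers were mostly under the floor. Of 9 smooth muscle genes, 5 were under it on both arrays, and these included Myh11, Tagln, Cnn1 and Myocd, which define the contractile cells. All 9 genes summed to a signal of 1178 on the round array and 1986 on the other, and the higher sum came mostly from Acta2 and Smtn. Acta2, which is also made by other cells, had 225 and 1007, 4.48-fold higher in the columnar/hypertrophic portion, and Des went from 258 to 29.1, at least 2.56-fold lower. Only 1 of 3 Acta2 probe sets and 1 of 2 Des probe sets was above the floor. Of 9 endothelial genes, 7 were under the floor on both arrays, Pecam1, Cdh5 and Kdr among them, and all 9 summed to 653 and 523, with Egfl7 and Esam, the 2 genes above the floor, giving the larger share on both arrays. Of 6 blood genes, 9 skeletal muscle genes and 3 osteoblast genes with a probe set, 3, 6 and 2 were under the floor on both arrays.

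**Figure D4:**
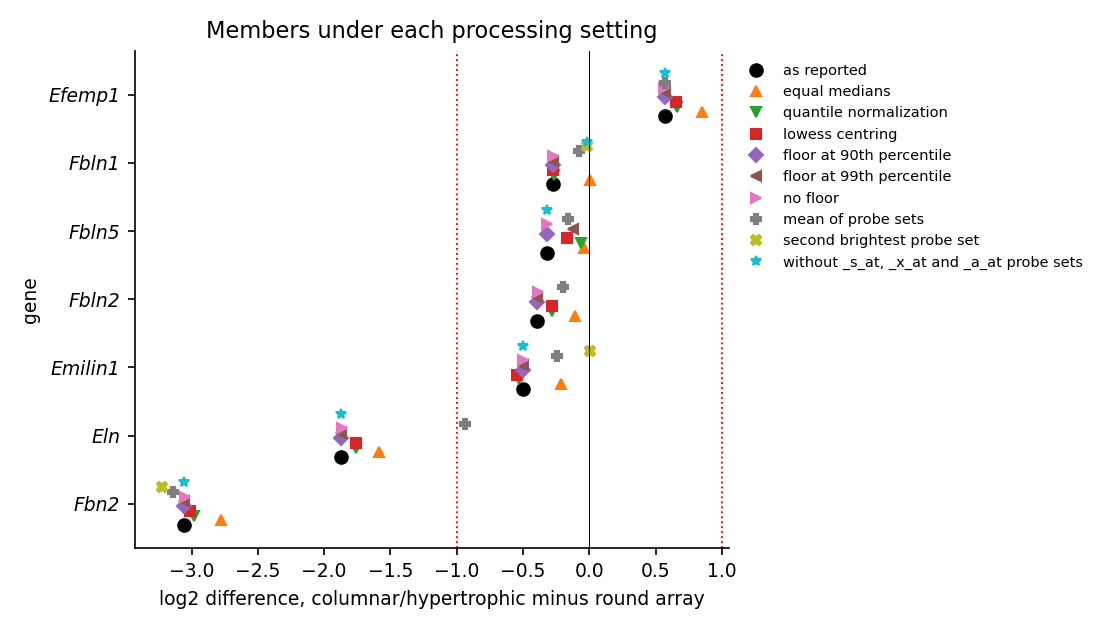
Log2 difference (horizontal, columnar/hypertrophic minus round array) of each of the 7 measured genes (vertical) as reported (black) and under 9 other processing settings (coloured symbols), where the setting gives a value. Fbn2 stays between -3.23 and -2.78, Eln stays beyond 2-fold (dotted line) except as the mean of its probe sets (-0.93), and Efemp1 stays above 0, while Fbln1 and Emilin1 reach 0.01 under 1 setting each.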

How the data were processed

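RNA of 2 wild-type cartilage samples, 1 per group, was measured on Affymetrix Mouse Genome arrays. The deposited values are linear intensities, 1 signal per probe set, made by MAS5 according to the submitters' processing notes, whose version is not given in the sources used. RMA, a log-scale method, is named in the methods of the study. The deposited values were linear down to 0.0948, and the mean without the lowest and highest 2% was 500.0 on each array, and they were treated as MAS5 output. MAS5 subtracts a local background and scales each array to a common mean, which makes weak signals noisy and assumes comparable total RNA. Precision is limited by the number of arrays.

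Of 45101 probe sets, 34958 had 1 gene symbol, 932 several and 9211 were unnamed here. Symbols were updated through Entrez identifiers to the RefSeq table of GRCm38.p6, which matched 34754 probe sets. Probe sets with several symbols were not used. Signals were raised to a floor of 100.5 and log2 values taken, and a gene was represented by its probe set of highest mean log2 signal (Python 3.11.15, pandas 2.3.3, statsmodels 0.14.6). A gene was counted as higher or lower at 2-fold. No statistical test was made between the arrays. The counting at 2-fold was tried on simulated data, with planted differences larger than 2-fold in genes well above the floor. The simulated noise was the technical spread between probe sets. It therefore does not bear on calls near 2-fold or near the floor, or on the spread between embryos. Alternatives were 3 scalings (equal medians, quantile, lowess, span 0.3), a floor set to the 90th or 99th percentile, no floor (log2 of signal plus 1), the mean or the second brightest probe set, and no probe sets with the suffixes _s_at, _x_at and _a_at.

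The members and gene lists were chosen with earlier results of these data known. All members were named, with the crosslinking, latent TGF-β binding protein and MFAP genes, other pathway genes past 2-fold, and up to 4 of each marker list by size. Adamts10, Fbln7, Emilin2, Mmrn1, Mmrn2, Tgfb1, Ctsl, Mmp2, Mmp14, Mmp13, Hspg2, Fn1, Nid1, Ecm1, Smtn, Col1a2, Egfl7, Esam, Lum, Col6a3, Twist2, Scx, Tnmd, Mkx, Thy1, Dpt and the vessel markers under the floor were named after their values were seen. Of the cell type lists, hypertrophic markers apart from Col10a1 and Mmp13, and round, blood, skeletal muscle and osteoblast markers, are given as counts.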

Additional observations from a re-analysis of the deposited data

How the results depend on the processing

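Fbn2 was at least 2-fold lower under all 9 alternatives, between -3.23 and -2.78. Eln was at least 2-fold lower under 7 of the 8 that give it a value. As the mean of its probe sets it was -0.93, because the probe set under the floor enters as no difference, and the number of members at least 2-fold lower was then 1 instead of 2. With the second brightest probe set, which only 3 members have above the floor, that number was 1 and the median -0.0205. The number at least 2-fold higher was 0 under each alternative. Of 58 differences of single members, 56 moved by less than the technical SD of 0.37, and the others were those of Eln above and of Emilin1 (0.006 by its second probe set). Equal medians moved the median of all genes from -0.05 to 0.22, and relative to that median 6 of 7 members were lower with either scaling. Lowering the floor to the 90th percentile (82.2) made Mfap5 a bound of -0.11.

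Of the 38 genes of the related lists, 17 were lower by 2-fold or more. This became 12 with equal medians, 9 of 21 with the second brightest probe set, and 14 to 19 otherwise. The 0 proteases lower became 2 with quantile or lowess scaling and with the second brightest probe set, and 1 with the mean. Over all genes, the 745 lower and 504 higher became 414 and 943 with equal medians, 1162 lower without a floor, 490 lower with the mean of probe sets, and 313 and 245 with the second brightest probe set. Without a second array per group, no alternative bears on the spread between embryos.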
